A study of Mus musculus with 8 samples.

Results

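Replication initiation was described at 3 promoter sites, at the starts of Rnf111, of Sdhaf2 and Cpsf7, and of upstream Nrg4 transcripts not annotated as protein-coding beside AI118078, and at every other initiation site (IS) around Rnf111, Sdhaf2, Cpsf7 and Nrg4. The promoter sites are 3 ISs with the lowest density in Rif1KO_shMcm6 relative to Rif1KO_shLacZ cells among the 64972 ISs whose mean density reached the table's median of 2.74 log2 RPM (reads per 1000000 reads in ISs). They were therefore chosen for the difference between those groups, which is given below as a description only. The members are all ISs that overlap the 4 genes or the 20 kb on either side, in 3 windows, since Sdhaf2 and Cpsf7 are neighbours and share 1. The windows held 20 of the 129937 ISs in the table of the hairpin cells and 15 of the 39116 ISs in the table of Rif1KO and WT cells. A promoter site is an IS no more than 1 kb from where a protein-coding transcript starts (its transcription start site, TSS). The tables held 5744 and 2488 promoter sites.

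All groups were asynchronous cultures of the mouse B cell lymphoma line CH12 (clone F3 per the methods), grown per the labels with IL4, CD40 and TGF beta stimulation. The groups, each of 2 libraries from separately thawed vials, were WT cells, cells without RIF1 (Rif1KO), and Rif1KO cells that carried a lentiviral hairpin against LacZ (Rif1KO_shLacZ) or against the helicase subunit gene Mcm6 (Rif1KO_shMcm6), selected with puromycin. Both hairpin groups thus lacked RIF1, and WT cells with a hairpin against Mcm6 were not analysed here. SNS-seq reads DNA, so neither the loss of RIF1, the depletion of MCM6 nor the identity of the B cells can be checked in these values. Each table holds 1 pooled value per group and IS, so there is no replicate error and no test was possible. Standard errors (SE) and 95% intervals come from the reads behind each value, cover counting error only, and treat PCR copies as separate molecules. The hairpin table held 21071351 (Rif1KO_shLacZ) and 23602750 (Rif1KO_shMcm6) reads in ISs, and that of WT and Rif1KO cells 3350255 and 3724571, so intervals are wider in the latter. The tables were scaled separately and their ISs have different bounds, so densities are set against each other within 1 table except where the text says otherwise.

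Replication starts where a pair of MCM helicases, loaded on DNA in G1 phase, is activated in S phase. More MCM is loaded than is used, and the surplus gives dormant origins. SNS-seq sequences short nascent leading strands, which keep an RNA primer and so survive lambda exonuclease. The more often an IS is used in the population, the more reads it collects. In mammals many ISs lie at promoters rich in CpG. RIF1 binds protein phosphatase 1 and is known for its role in the timing of replication.

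The 4 genes have unrelated roles. Rnf111 encodes Arkadia, an E3 ubiquitin ligase that acts in TGF-beta signalling by targeting SMAD co-repressors. Sdhaf2 encodes an assembly factor that helps to add flavin to succinate dehydrogenase. Cpsf7 encodes a subunit of cleavage factor Im, which takes part in the choice of polyadenylation sites. Nrg4 encodes neuregulin 4, an EGF-family ligand of the receptor ErbB4.

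Each promoter site overlapped an annotated first exon, and 2 of the 3 spanned the gap between divergent transcripts. In the hairpin table the Rnf111 site lay at chr9:70350594-70351242 (mm9), 649 bp wide, and covered the start of the shorter protein-coding transcript at 70351161, with the longer one starting at 70351532, outside the site on the minus strand. The Sdhaf2-Cpsf7 site lay at chr19:10599697-10600579 (883 bp) and covered both protein-coding starts, Sdhaf2 on the minus strand at 10599699 and Cpsf7 on the plus strand at 10599734. The Nrg4 site lay at chr9:55174638-55175309 (672 bp). It covered the start, at 55174651 on the minus strand, of an Nrg4 transcript annotated as processed and not as protein-coding, and the protein-coding start of AI118078 on the plus strand at 55174720. Another Nrg4 transcript, annotated as subject to nonsense-mediated decay, starts at 55174556, outside the site and within 1 kb of it. The protein-coding starts of Nrg4 lie far from it, the nearest at 55131432. By annotation this is therefore a promoter site of AI118078 and of upstream Nrg4 starts that are not annotated as protein-coding. All 3 sites also contained intron sequence.

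The sequences below are shown because the 3 sites share a base composition that the choice did not use. They are the gaps between divergent starts, the whole first intron of the shorter Rnf111 transcript, and stretches of 300 bp from the longer first introns of Cpsf7 and AI118078, from the mm9 genome, 5′ to 3′, with no annotated UTR. The first, from chr9:70350810-70351038, is on the minus strand, the strand of Rnf111. The others are on the plus strand, from chr19:10599700-10599733, chr19:10599889-10600188, chr9:55174652-55174719 and chr9:55174808-55175107. Capitals mark matches on either strand to the GC box (GGGCGG), the ETS motif (CCGGAAG), the CCAAT box or the TATA box (TATAAA), or to a G-quadruplex pattern of 4 runs of GGG with 1 to 7 bases between runs. GC box and G-quadruplex matches can overlap.
Rnf111 first intron: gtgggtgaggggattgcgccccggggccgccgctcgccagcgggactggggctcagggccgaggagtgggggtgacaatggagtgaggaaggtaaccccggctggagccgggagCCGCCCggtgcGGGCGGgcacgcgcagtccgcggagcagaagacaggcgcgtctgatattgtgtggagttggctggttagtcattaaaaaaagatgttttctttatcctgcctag
Sdhaf2-Cpsf7 gap: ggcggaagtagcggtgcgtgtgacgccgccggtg
Cpsf7 first intron, 300 bp: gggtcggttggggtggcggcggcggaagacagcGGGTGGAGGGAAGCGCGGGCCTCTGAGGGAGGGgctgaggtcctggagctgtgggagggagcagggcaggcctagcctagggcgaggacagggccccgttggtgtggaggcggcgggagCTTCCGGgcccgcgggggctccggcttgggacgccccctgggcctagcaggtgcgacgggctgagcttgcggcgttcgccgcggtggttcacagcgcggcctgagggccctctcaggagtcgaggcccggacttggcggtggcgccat
Nrg4-AI118078 gap: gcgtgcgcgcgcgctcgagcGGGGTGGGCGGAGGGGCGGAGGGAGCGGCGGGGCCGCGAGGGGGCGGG
AI118078 first intron, 300 bp: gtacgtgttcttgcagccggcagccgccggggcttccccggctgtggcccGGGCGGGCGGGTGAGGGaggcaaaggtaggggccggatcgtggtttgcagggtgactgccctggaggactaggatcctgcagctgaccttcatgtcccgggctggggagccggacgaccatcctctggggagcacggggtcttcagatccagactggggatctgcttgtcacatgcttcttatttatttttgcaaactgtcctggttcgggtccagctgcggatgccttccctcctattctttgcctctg

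The gap between Sdhaf2 and Cpsf7 was 34 bp long with 73.5% GC, and that between Nrg4 and AI118078 was 68 bp long with 88.2% GC and 14 CpG dinucleotides. Over the whole sites GC content was 59.3% (Rnf111), 69.3% (Sdhaf2-Cpsf7) and 63.5% (Nrg4), against a median of 54.0% over all promoter sites and 44.4% over all ISs of the hairpin table. The observed over expected CpG ratio was 0.981, 0.903 and 0.754, against medians of 0.368 and 0.145. In windows of 500 bp centred on each site, that ratio stood at percentile 99.4 (Rnf111), 92.6 (Sdhaf2-Cpsf7) and 82.8 (Nrg4) of all promoter sites. All 3 sites were thus richer in GC and CpG than the median promoter site of the hairpin table. In the table of Rif1KO and WT cells the promoter medians were higher, at 58.2% GC and a ratio of 0.512. With the bounds of that table the 3 sites had 65.4%, 74.5% and 70.8% GC and ratios of 0.971, 0.922 and 0.826. Promoter sites of like density, or that cover a TSS, were not compared.

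In the same 500-bp windows the GC box matched 3 times at Rnf111, 2 times at Sdhaf2-Cpsf7 and 3 times at Nrg4. It was present in 42.3% of the 5742 promoter windows that could be read and in 11.5% of the 129933 windows over all ISs. The G-quadruplex pattern was also present in all 3, with 1, 6 and 6 overlapping or separate matches, and in 55.8% of promoter windows. CCGGAAG was found only in the Sdhaf2-Cpsf7 window (5.26% of promoter windows) and TATAAA only in the Rnf111 window (16.4%). The CCAAT box, present in 45.5% of promoter windows, matched none of the 3. These windows do not span the whole sites: that of Sdhaf2-Cpsf7 (chr19:10599889-10600388) leaves out both starts, and that of Nrg4 (chr9:55174724-55175223) begins just after the AI118078 start.

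In the hairpin cells, the contrast that chose the sites, each promoter site held less than 0.5 of its control density. The Rnf111 site had 238 reads in Rif1KO_shLacZ and 116 in Rif1KO_shMcm6 cells, densities of 3.50 and 2.30 log2 RPM, a log2 fold change of -1.20 ± 0.16 (SE) or 0.435 times the control. The Sdhaf2-Cpsf7 site had 243 and 120 reads, 3.53 and 2.35 log2 RPM, and a fold change of -1.18 ± 0.16 on the log2 scale (0.441 times). The Nrg4 site had 221 and 113 reads, 3.39 and 2.26 log2 RPM, and a fold change of -1.13 ± 0.17 (0.456 times). The 3 values lay within 1 SE of each other. Among all ISs ordered by density, the sites stood at percentiles 84.9, 85.9 and 81.1 in Rif1KO_shLacZ and at 24.9, 27.4 and 23.0 in Rif1KO_shMcm6 cells. The sites therefore went from the denser to the sparser part of the distribution, while the median fold change was -0.01 over all ISs and -0.04 over all promoter sites.

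**Figure D1:**
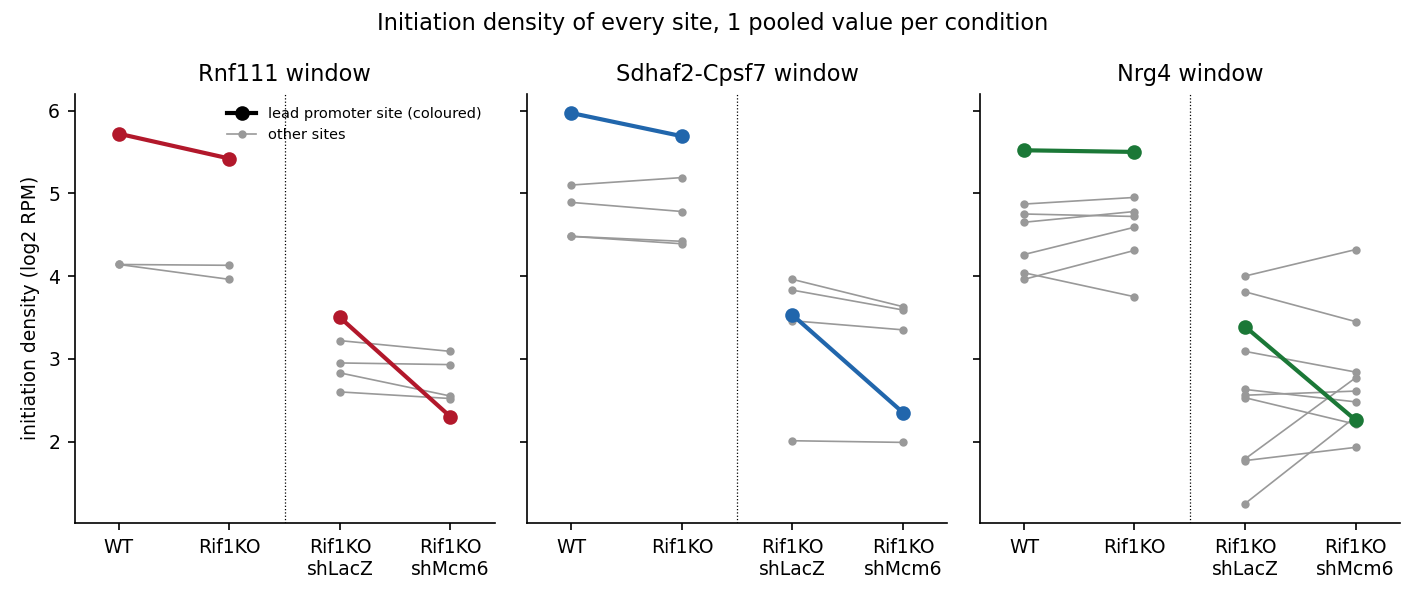
Initiation density (y axis, log2 RPM) of every IS of the 3 windows in the 4 groups (x axis), 1 pooled value per group. Coloured lines are the promoter sites and grey lines the other ISs, and the dotted line separates the tables, which were scaled separately. The promoter site is the densest IS of each window in WT and Rif1KO cells, and in the Rnf111 window it goes from the densest IS in Rif1KO_shLacZ (3.50) to the sparsest in Rif1KO_shMcm6 (2.30).

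The choice had a density minimum, and over all ISs the 3 sites ranked 10, 15 and 23 by fold change. The next 3 sites by the same rule were not promoter sites. They were an IS 36511 bp from the TSS of Laptm5 (chr4:130431617-130432529, log2 fold change -1.11 ± 0.16), an IS 39787 bp from that of Fam83f (chr15:80542064-80542971, -1.09 ± 0.14) and an IS 5917 bp from that of Slc25a42 (chr8:72742121-72743102, -1.04 ± 0.15). The step from the last promoter site inside, at -1.13, to the first site outside, at -1.11, was smaller than the SE of either.

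Of the other ISs of the windows, none was lower by 1.5-fold in Rif1KO_shMcm6 cells, and 2 ISs in Nrg4 introns were higher by about as much as the promoter sites were lower. In this comparison 1.51% of all ISs were lower and 4.8% higher by at least 1.5-fold, and among promoter sites the shares were 3.95% and 4.96%. The 17 other ISs had a median log2 fold change of -0.11, with a range from -0.36 to 1.05, and 12 lay below 0 and 5 above. Of all 129937 ISs, 67023 lay below 0 and 62914 above. Of the 20 ISs with the promoter sites, 10 were called as peaks in both groups, 7 in Rif1KO_shLacZ only and 3 in Rif1KO_shMcm6 only. The 7 include all 5 ISs of the Sdhaf2-Cpsf7 window. Over all 129937 ISs, 85457 were called in both groups, 14417 in Rif1KO_shLacZ only and 30063 in Rif1KO_shMcm6 only. In each window the promoter site was the IS with the lowest value.

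In the Rnf111 window the 4 other ISs all lay within the gene, which runs on the minus strand, and had log2 fold changes between -0.28 and -0.02. The most read was an intronic IS at chr9:70330426-70331102, with 196 reads in Rif1KO_shLacZ and 201 in Rif1KO_shMcm6 cells (-0.13 ± 0.14). The lowest, at chr9:70316936-70317501 over a coding exon, had 150 and 138 reads (-0.28 ± 0.17), and the highest, in an intron at chr9:70318277-70318897, had 163 and 180 (-0.02 ± 0.16). The intronic IS closest to the promoter, at chr9:70348036-70348718, had 128 and 135 reads (-0.09 ± 0.18). All 4 intervals included 0.

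In the Sdhaf2-Cpsf7 window the 4 other ISs had log2 fold changes between -0.33 and -0.02. The most read and the lowest was an IS in an Sdhaf2 intron at chr19:10592879-10593768, with 328 and 292 reads (-0.33 ± 0.12). An IS over coding exons where Cpsf7 and Tmem216 overlap (chr19:10609046-10610033) had 299 and 285 reads (-0.23 ± 0.12). The promoter site of 4930579J09Rik, at chr19:10556709-10557335, had 232 and 241 reads (-0.11 ± 0.13). An intergenic IS at chr19:10567393-10567808 had 85 and 94 reads and the highest value of the window (-0.02 ± 0.22). The promoter site of 4930579J09Rik thus differed by less than its counting interval. The Sdhaf2-Cpsf7 site, at 0.441 times its control, was chosen for its low value in this contrast. That it lay below an unchosen promoter site therefore follows from the choice and is a description only.

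The Nrg4 window held 9 other ISs, with values on both sides of 0. The 2 ISs past 1.5-fold were both in Nrg4 introns, at chr9:55110482-55110847 with 50 and 116 reads (1.05 ± 0.24), the highest of the window, and at chr9:55143141-55143929 with 73 and 161 reads (0.98 ± 0.20). Both were sparse in the control, at 1.25 and 1.79 log2 RPM. The most read IS, in an Nrg4 intron at chr9:55115604-55116948, had 337 and 470 reads (0.32 ± 0.10). The lowest of the others, over an exon of AI118078 at chr9:55180992-55181808, had 295 and 258 reads (-0.36 ± 0.12). A promoter site of Fbxo22, at chr9:55061597-55062186, had 130 and 132 reads (-0.14 ± 0.18). Both ISs past 1.5-fold were called as peaks in Rif1KO_shMcm6 cells only and so entered the table through the group where they were high, and over the other ISs called in both groups the pooled log2 fold change of the window was -0.03.

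**Figure D2:**
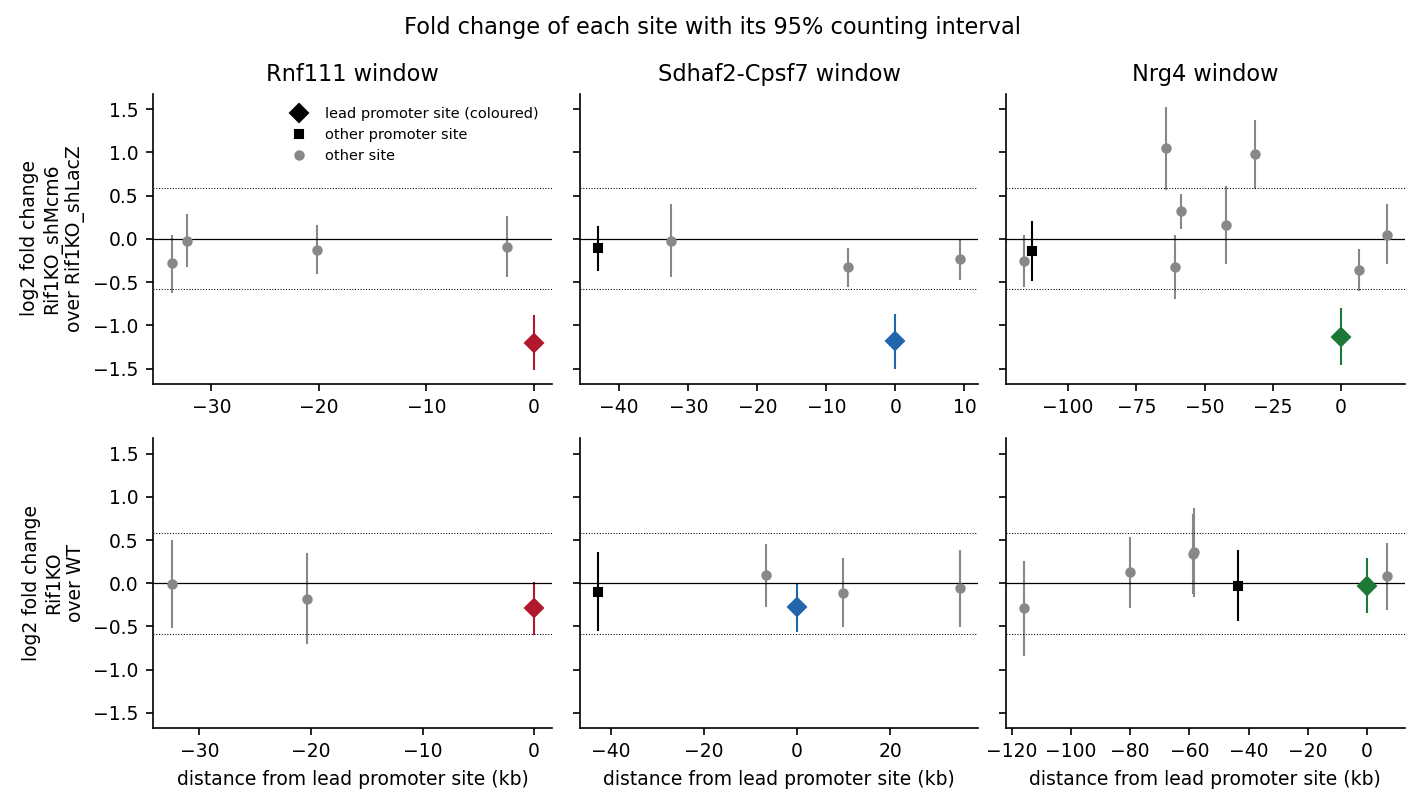
Log2 fold change (y axis) of each IS by its distance in kb from the promoter site (x axis, negative towards lower coordinates), with 95% counting intervals. The upper row is Rif1KO_shMcm6 over Rif1KO_shLacZ and the lower row Rif1KO over WT, diamonds are the promoter sites, squares other promoter sites, circles other ISs, and dotted lines mark 1.5-fold. In the upper row the diamonds lie between -1.20 and -1.13 and every other IS at -0.36 or above, and in the lower row no IS is past 1.5-fold.

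The promoter site was set against the pooled reads of the other ISs in its window, a difference in which any scaling of a library cancels. Pooled, the other ISs had log2 fold changes of -0.13 ± 0.08 (Rnf111), -0.21 ± 0.07 (Sdhaf2-Cpsf7) and 0.09 ± 0.05 (Nrg4). All 5 ISs of the Sdhaf2-Cpsf7 window, the promoter site included, were called as peaks in Rif1KO_shLacZ cells only and entered the table through that group, where they were higher. The promoter site minus the others was -1.07 ± 0.18 with a 95% interval from -1.43 to -0.72 for Rnf111. It was -0.97 ± 0.17 (-1.31 to -0.63) for Sdhaf2-Cpsf7 and -1.22 ± 0.17 (-1.56 to -0.88) for Nrg4. The promoter held 27.2% of the IS reads of the Rnf111 window in Rif1KO_shLacZ (95% Wilson interval 24.4 to 30.2) and 15.1% in Rif1KO_shMcm6 cells (12.7 to 17.8). For Sdhaf2-Cpsf7 the shares were 20.5% (18.3 to 22.9) and 11.6% (9.81 to 13.7). For Nrg4 they were 13.8% (12.2 to 15.6) and 6.41% (5.36 to 7.65). The shares depend on the window: within the gene body those of Nrg4 were 25.3% and 10.7%, and with 50 kb flanks those of Sdhaf2-Cpsf7 were 11.8% and 6.62%. The intervals of the groups did not overlap in any window. Since the sites were chosen by this contrast, these intervals measure the precision of the values and test nothing.

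The comparison of Rif1KO with WT cells used other libraries and was not used to choose the sites. Here the promoter sites had bounds shifted from those in the hairpin table, and each overlapped exactly 1 IS. The Rnf111 site (chr9:70350673-70351363) had 176 reads in WT and 160 in Rif1KO cells, 5.72 and 5.42 log2 RPM, a fold change of -0.29 ± 0.16 with an interval from -0.60 to 0.02. The Sdhaf2-Cpsf7 site (chr19:10599581-10600322) had 210 and 192 reads, 5.97 and 5.69 log2 RPM, a fold change of -0.28 ± 0.14 (-0.56 to 0.00). The Nrg4 site (chr9:55174560-55175113) had 154 and 168 reads, 5.52 and 5.50 log2 RPM, a fold change of -0.03 ± 0.16 (-0.34 to 0.29). None of the 3 was past 1.5-fold, and their intervals, which include or touch 0, do not show that the densities were alike.

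Of the 15 ISs of the windows in this table, 0 were past 1.5-fold in either direction. Over all ISs 2.7% were lower and 2.27% higher by 1.5-fold, and over promoter sites 8.4% were lower and 0.844% higher. The median over all promoter sites was -0.14, below that over all ISs at 0.02. Against all promoter sites the fold changes stood at percentile 29.4 (Rnf111), 30.5 (Sdhaf2-Cpsf7) and 69.0 (Nrg4), in the middle part of the distribution. The 12 other ISs had a median of -0.02, from -0.29 to 0.36.

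The other ISs of the windows gave the same picture of small values in this comparison. The promoter site of 4930579J09Rik had 75 reads in WT and 78 in Rif1KO cells (-0.10 ± 0.23). A promoter site over the protein-coding starts of Nrg4, at chr9:55131122-55131625, was present in this table only and had 90 and 98 reads (-0.03 ± 0.21). The most read IS of the hairpin table within Nrg4 overlapped 2 ISs here, with 64 and 90 reads (0.34 ± 0.24) and with 52 and 74 reads (0.36 ± 0.26), the highest values of that window. Both were called as peaks in Rif1KO cells only and so entered the table through the group where they were high. The lowest was an IS in an intron of Fbxo22 at chr9:55058855-55059196, with 55 and 50 reads (-0.29 ± 0.28). It was called in WT cells only, as were the 4930579J09Rik site and the Rnf111 IS at -0.18 below, and all 3 entered the table through the group where they were higher. In the Sdhaf2-Cpsf7 window the Sdhaf2 intronic IS had 115 and 136 reads (0.09 ± 0.18) and was the highest, and the Cpsf7-Tmem216 IS had 99 and 102 (-0.11 ± 0.20) and was the lowest of the others. In the Rnf111 window the 2 other ISs had 59 and 65 reads (-0.01 ± 0.26) and 59 and 58 reads (-0.18 ± 0.27). The promoter minus the pooled others was -0.20 ± 0.24 (-0.68 to 0.28) for Rnf111, -0.25 ± 0.18 (-0.60 to 0.10) for Sdhaf2-Cpsf7 and -0.13 ± 0.19 (-0.49 to 0.23) for Nrg4. The upper bounds were above 0 in all 3 windows.

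**Figure D3:**
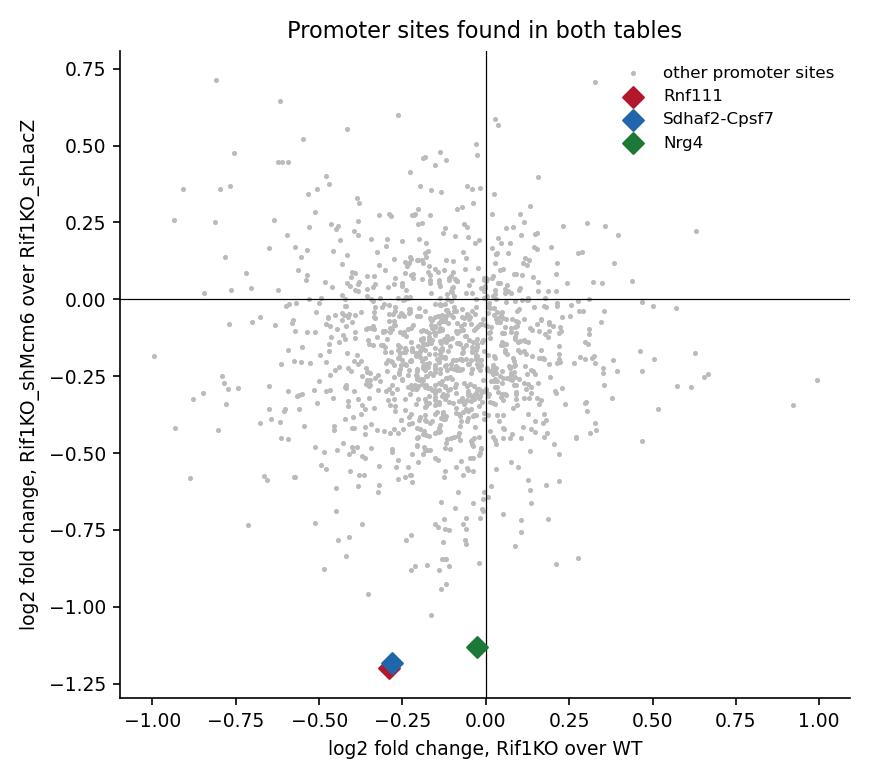
Log2 fold change in Rif1KO over WT (x axis) and in Rif1KO_shMcm6 over Rif1KO_shLacZ (y axis) for 1219 promoter sites found 1 to 1 in both tables with mean density at or above the median in each. The 3 diamonds are the sites of Rnf111 (-0.29, -1.20), Sdhaf2-Cpsf7 (-0.28, -1.18) and Nrg4 (-0.03, -1.13), which lie at the lower edge because they were chosen on the y axis, and within the spread of the grey points on the x axis.

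Before any hairpin, the promoter sites were among the denser ISs. They stood at percentiles 96.1 (Rnf111), 97.9 (Sdhaf2-Cpsf7) and 94.0 (Nrg4) of all ISs in WT and at 92.5, 96.1 and 93.7 in Rif1KO cells. To set the 4 groups side by side, each density was taken relative to the median IS of its own table and group. The Rnf111 site lay 1.27 (log2) above the median in WT, 0.96 in Rif1KO and 0.76 in Rif1KO_shLacZ cells, and at -0.46 in Rif1KO_shMcm6 cells. The Sdhaf2-Cpsf7 site lay at 1.52, 1.23, 0.79 and -0.42, and the Nrg4 site at 1.08, 1.03, 0.65 and -0.50. The median of 1863 promoter sites shared 1 to 1 by the tables was 0.44, 0.26, 0.82 and 0.67. The 3 sites were thus above the upper quartile of shared promoter sites in WT (0.94) and Rif1KO cells (0.79), below their median in Rif1KO_shLacZ cells, and below their lower quartile (0.19) in Rif1KO_shMcm6 cells. The last position follows from the choice. Among all promoter sites of each table, they stood at percentiles 80.9, 87.9 and 82.8 in Rif1KO cells. In Rif1KO_shLacZ cells these percentiles were 73.4, 74.6 and 68.9, so the place below the median holds for the shared set only. The step between Rif1KO and Rif1KO_shLacZ crosses tables that differ in depth, in the number of ISs and in IS bounds, and the hairpin cannot be told apart from these.

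The promoter sites were also set against their neighbours at ISs present in both tables. Of the 20 ISs in the hairpin cells 11 overlapped an IS of the other table, the 3 promoter sites and 8 others, and reads were taken per kb of IS width because IS widths differed between the tables, with the Rnf111 promoter site narrower (649 against 691 bp) and its neighbours wider in the hairpin table. For Rnf111 the promoter had 1.63 times the reads per kb of its 2 shared neighbours in WT (interval 1.29 to 2.05), 1.42 in Rif1KO (1.12 to 1.80), 1.33 in Rif1KO_shLacZ (1.13 to 1.56) and 0.609 in Rif1KO_shMcm6 cells (0.495 to 0.750). For Sdhaf2-Cpsf7, with 3 shared neighbours, the ratio was 1.52 (1.27 to 1.82), 1.27 (1.06 to 1.52), 0.803 (0.696 to 0.925) and 0.416 (0.344 to 0.504). For Nrg4, also with 3, it was 2.12 (1.74 to 2.59), 1.89 (1.57 to 2.28), 1.11 (0.956 to 1.29) and 0.513 (0.422 to 0.624). In WT and Rif1KO cells each promoter was denser than its neighbours, and in Rif1KO_shMcm6 cells each was sparser. The hairpin groups are the contrast that chose the sites. A lower ratio in Rif1KO_shMcm6 than in Rif1KO_shLacZ cells therefore follows from the choice and is a description only. In Rif1KO_shLacZ cells Rnf111 was denser, Sdhaf2-Cpsf7 was sparser and the Nrg4 interval included 1. The intervals of WT and Rif1KO cells overlapped in all 3 windows. For Rnf111 the Rif1KO and Rif1KO_shLacZ intervals overlapped, and for Sdhaf2-Cpsf7 and Nrg4 they did not. This step crosses the tables, and the intervals cover counting error only, not the different IS bounds. The Cpsf7-Tmem216 IS, for example, was 988 bp wide in the hairpin table and 455 bp in the other. Without the division by width the Rnf111 ratio was 1.30 (1.03 to 1.65) in Rif1KO and 0.663 (0.563 to 0.781) in Rif1KO_shLacZ cells, which did not overlap.

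**Figure D4:**
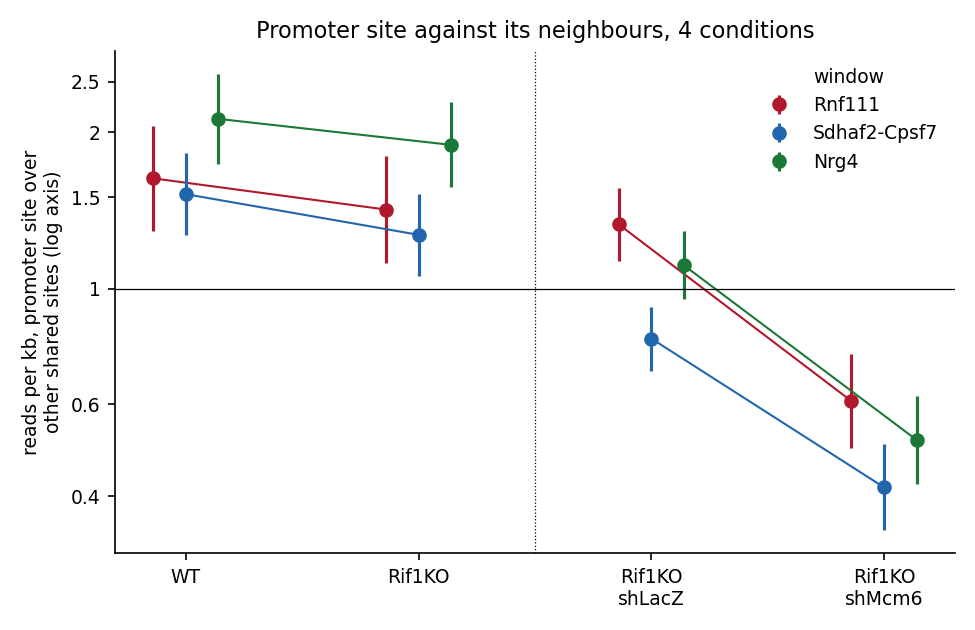
Reads per kb of the promoter site divided by reads per kb of the other ISs of its window that both tables hold (y axis, log scale), in the 4 groups (x axis), with 95% counting intervals. The dotted line separates the tables. The ratios lie above 1 in WT and Rif1KO (1.27 to 2.12) and below 1 in Rif1KO_shMcm6 (0.416 to 0.609) for all 3 windows, and in Rif1KO_shLacZ they lie on both sides of 1 (0.803 to 1.33). The step between the hairpin groups is the contrast that chose the sites.

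The lists of ISs per group, which keep only peaks found in both replicates and within a cluster of peaks, held the promoter sites in most groups. The Rnf111 and Nrg4 sites were listed in all 4 groups, so they were still called as peaks in Rif1KO_shMcm6 cells. The Sdhaf2-Cpsf7 site was listed in WT, Rif1KO and Rif1KO_shLacZ cells but not in Rif1KO_shMcm6 cells. None of the 5 ISs of that window was listed in Rif1KO_shMcm6 cells, including the promoter site of 4930579J09Rik with 241 reads in Rif1KO_shMcm6 cells, so absence from the list did not follow the density of the single IS. The 2 Nrg4 ISs that were higher by 1.5-fold were listed in Rif1KO_shMcm6 cells and in none of the other groups.

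Promoter sites with values most like these in both contrasts were sought by a measure that includes the contrast that chose the sites, so the 4 sites named are also the next lowest of these pairs in that contrast. Likeness was the distance between sites in the plane of both log2 fold changes, after the median of each table was subtracted, over the 1219 promoter pairs, leaving the 3 sites themselves out. The site of Sik1, a salt-inducible kinase (chr17:31991995-31993144), was nearest to all 3, at distances of 0.22, 0.20 and 0.17, with -1.03 ± 0.14 in the hairpin cells and -0.16 ± 0.17 in Rif1KO over WT. The site of Usp34, a ubiquitin-specific protease (chr11:23206337-23206970, -0.96 ± 0.13 and -0.35 ± 0.13), came next for Rnf111 and Sdhaf2-Cpsf7. That of Ssbp2, a single-stranded DNA-binding protein (chr13:91600407-91601191, -0.94 ± 0.14 and -0.13 ± 0.13), was among the nearest 3 of every site. The remaining one, for Nrg4, was 2810403A07Rik (chr3:88489250-88490162, -0.93 ± 0.14 and -0.12 ± 0.16).

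Promoter sites of genes that act with the 4 genes were read from 4 lists, using the densest promoter site of each gene and leaving the members out. Of 24 genes of TGF-beta and SMAD signalling, where Rnf111 acts, 9 others had a promoter site in the hairpin table. Of these 0 were past 1.5-fold, with a median of 0.06, from Tgfb1, a ligand (193 and 179 reads, -0.27 ± 0.15), to Tgfb3, another (99 and 143 reads, 0.37 ± 0.19). The receptor gene Tgfbr1 (-0.03 ± 0.13) and the signal transducer gene Smad1 (0.02 ± 0.10) lay near 0. In Rif1KO over WT 4 others had a site, and 1 of them, Smad1, was lower by 1.5-fold with 131 and 81 reads (-0.85 ± 0.20), where 8.4% of all promoter sites were lower. The highest there was Smurf1, a ubiquitin ligase for SMADs (-0.03 ± 0.09).

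Of the 8 genes of succinate dehydrogenase and its assembly, Sdhaf2 was the only 1 with a promoter site in either table. Of 19 genes of cleavage and polyadenylation, 3 others had a site in the hairpin table, 0 past 1.5-fold, with a median of -0.35. Pabpn1, the nuclear poly(A)-binding protein, was the lowest (574 and 478 reads, -0.43 ± 0.09). Papola, the poly(A) polymerase, was the highest at its densest site (188 and 237 reads, 0.17 ± 0.14), while its site nearest the TSS was at -0.88. In Rif1KO over WT the same 3 genes had a site, with 0 past 1.5-fold and a median of -0.19, from Papola (-0.32 ± 0.22) to Wdr33, a subunit of the cleavage factor that binds the polyadenylation signal (0.11 ± 0.23).

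Of 15 genes for EGF-family ligands and ErbB receptors, 6 others had a site in the hairpin table, with a median of 0.31. The receptor genes Erbb2 (67 and 146 reads, 0.96 ± 0.21) and Erbb4 (71 and 128 reads, 0.69 ± 0.21) were higher by 1.5-fold and 0 were lower, where 4.96% of all promoter sites were higher. Both sites were sparse in Rif1KO_shLacZ cells, where the median IS had 141 reads. The lowest was the ligand gene Nrg2 (-0.22 ± 0.12). In Rif1KO over WT only Nrg3 (-0.20 ± 0.21) and Nrg2 (0.12 ± 0.19) had a site besides Nrg4, and 0 were past 1.5-fold. Over the 4 lists 18 promoters had a site in the hairpin cells, of which 0 were lower and 2 higher by 1.5-fold, beside 3.95% and 4.96% of all promoter sites.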

How the data were processed

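Per the labels and the methods, the authors trimmed reads with Trim Galore 0.6.4 (cutadapt 2.6), aligned them uniquely to mm9 with Bowtie 1.2.3, called peaks per replicate with MACS without input, intersected replicates with bedtools, kept clustered peaks and merged the peak sets of each comparison. Unique alignment leaves repeats out, and without input, copy number stays in the densities. The merged tables hold log2 RPM as deposited by the authors, 1 pooled value per group, scaled to the reads in their ISs. The authors' column with a category of fold change was not used, nor the number of merged peaks in the deposited lists, which served for presence only.

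Linear values were whole multiples of 1 read for 100% of values, with a largest offset of 5.5e-12 reads, so reads were recovered. Fold changes, their counting SE and Wilson intervals were computed with numpy 2.4.6 and pandas 2.3.3 and tested on simulated data, and sequence was read from NCBIM37 (mm9) with pysam 0.24.0. Genes and TSSs came from GENCODE M1, with 22380 protein-coding genes, and overlaps required 1 bp. Called sites were at or past 1.5-fold. Named by rule were the member genes, promoter sites of their windows, the 3 sites just outside the choice, the most read, highest and lowest other IS of a window, the 3 nearest promoters, and genes of the lists past 1.5-fold or lowest and highest. Tgfbr1 and Smad1 in the hairpin table and further ISs of the windows were added after their values were seen. The members and lists were chosen with earlier results of these data known.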

Additional observations from a re-analysis of the deposited data

How the results depend on the processing

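No paired analysis was possible because both replicates are merged into 1 value per group, and for the same reason the fits with a replicate left out were not run. Of 128 values under an alternative, 104 stayed within the counting interval of the reported value, or within 1.5 times a count, and 24 did not. No called value changed sign. Centring on the median of all ISs or of all promoter sites, or log2(RPM + 1), left the promoter fold changes between -1.19 and -0.99 in the hairpin cells. The promoter minus the other ISs ranged from -1.09 to -1.07 for Rnf111, from -1.01 to -0.90 for Sdhaf2-Cpsf7 and from -1.50 to -1.11 for Nrg4. No IS of the Sdhaf2-Cpsf7 window was called in both hairpin groups, so that alternative gave no value there, nor for the other ISs of Rnf111 in WT and Rif1KO cells. In Rif1KO over WT, centring on promoter sites put the 3 promoter sites at values from -0.15 (Rnf111) to 0.11 (Nrg4), the latter above 0.

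For the other ISs of Nrg4 the pooled fold change in the hairpin cells was 0.37 within the gene body and -0.03 at ISs called in both groups. Within the gene body the promoter share for Sdhaf2-Cpsf7 was 49.5% (WT), 44.7% (Rif1KO), 27.9% (Rif1KO_shLacZ) and 17.2% (Rif1KO_shMcm6), and for Nrg4 34.7%, 31.6%, 25.3% and 10.7%. With 50 kb flanks the share for Sdhaf2-Cpsf7 was 11.8% in Rif1KO_shLacZ and 6.62% in Rif1KO_shMcm6. Per base of width the share for Sdhaf2-Cpsf7 was 27.6% (WT), 24.5% (Rif1KO) and 18.1% (Rif1KO_shLacZ), and for Rnf111 44.8% (WT) and 41.5% (Rif1KO). These shares have another denominator by construction. At a log2 threshold of 0.32, 6 ISs of the windows were lower in the hairpin cells and 2, both called in Rif1KO cells only, were higher in Rif1KO over WT. At 2-fold 1 IS was higher in the hairpin cells, as with ISs at or above the lower quartile of density. Among the lists, 1 promoter (Papola) was lower in the hairpin cells at the site nearest the TSS, and at 2-fold 0 were higher in the hairpin cells and 0 lower in Rif1KO over WT. Depth was lower for WT and Rif1KO cells, with 73 and 82 reads in the median IS, against 141 and 160 in Rif1KO_shLacZ and Rif1KO_shMcm6 cells.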
